A study of Mus musculus with 231 samples.

Results

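The 5 mature microRNAs (miRNAs) mmu-let-7a-1-3p, mmu-let-7b-3p, mmu-let-7d-3p, mmu-let-7g-3p and mmu-let-7i-3p are the 3p strands of let-7 hairpins. They were taken by name from the 1863 mature miRNAs counted in peripheral blood mononuclear cells (PBMC) of the training cohort. They were chosen by their measured levels: in earlier results from these libraries, members moved in opposite directions in CM mice. Their training differences between CM and control mice, and their change over time in CM mice, are therefore given as a description with no test. Tests of the members are given only for control mice over time and for the validation cohort.

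All mice were C57BL/6, and every group received poly(I:C) at 14 mg/kg per dose every other day for 7 doses, starting at 6 to 8 weeks of age. CM mice were conditional Cbfb56M/+/Mx1-Cre knock-in mice with the genotype label CHW. Mx1-Cre responds to interferon, so poly(I:C) switches on the fusion gene Cbfb-MYH11 (CM) in every interferon-responsive tissue and not in blood cells alone. Control (Ctrl) mice were littermates that got identical injections, with the genotype labels HW, CW or WT. No source used here spells out these codes, and the sources differ on whether a Ctrl mouse could carry Cbfb56M/+ without Mx1-Cre. The training cohort had 7 CM mice (4 female, 3 male; 53 libraries) and 7 Ctrl mice (2 female, 5 male; 76 libraries), sampled before induction (month 0) and then monthly up to month 10. The validation cohort had 10 CM mice (5 female, 5 male; 60 libraries) and 6 Ctrl mice (3 female, 3 male; 42 libraries) by the sample labels, which were followed. The design text of the series has 1 CM mouse fewer and 1 Ctrl mouse more there, so the arm of 1 validation mouse is in doubt, and no source used here says which.

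A let-7 hairpin is cut by Drosha and Dicer into a duplex of a 5p and a 3p strand. The strand retained by Argonaute, called the guide, represses mRNAs that pair with its seed at bases 2 to 8, and the other strand, the passenger, is usually degraded. In the let-7 family the guide is as a rule the 5p strand, which rises with differentiation and is known for repressing growth genes such as Ras, Myc and Hmga2. The 3p strands carry other seeds and would pair with other mRNAs.

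The mature 3p sequences are shown because their seeds sort the 5 miRNAs into groups. All 5 matched RefSeq (GRCm38.p6), and each is 22 bases long. The seed is in capitals.
mmu-let-7a-1-3p: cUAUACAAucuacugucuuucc
mmu-let-7b-3p: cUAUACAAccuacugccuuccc
mmu-let-7d-3p: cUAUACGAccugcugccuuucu
mmu-let-7g-3p: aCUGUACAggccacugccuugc
mmu-let-7i-3p: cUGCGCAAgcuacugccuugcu
let-7a-1-3p and let-7b-3p shared the whole seed, 7 of 7 bases, and 19 of 22 bases over the full length aligned without gaps. let-7d-3p matched the seed of both at 6 of 7 bases. let-7i-3p matched 4 of 7 seed bases of let-7a-1-3p and of let-7b-3p and 3 of 7 of let-7d-3p. Counted position by position, let-7g-3p matched each of the others at 1 of 7 seed bases and at 4 or 5 of 22 bases. The stretch CUGCC starts at base 14 in let-7g-3p and at base 13 in let-7b-3p, let-7d-3p and let-7i-3p. These low counts thus come with a shifted frame, and matches in a shifted alignment were not counted.

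The opposite, 5p strands share 1 seed, as the sequences from the same hairpins show, again with bases 2 to 8 in capitals.
mmu-let-7a-5p: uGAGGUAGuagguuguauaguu
mmu-let-7b-5p: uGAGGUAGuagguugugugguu
mmu-let-7d-5p: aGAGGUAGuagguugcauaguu
mmu-let-7g-5p: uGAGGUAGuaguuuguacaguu
mmu-let-7i-5p: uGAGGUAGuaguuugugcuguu

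The hairpins lie at 4 places in the genome (GRCm38.p6, RefSeq). let-7a-1-3p (chr13:48538188-48538209, minus strand) and let-7d-3p (chr13:48536024-48536045, minus strand) come from a cluster in which 2064 bases separate the hairpins of Mirlet7a-1 and Mirlet7d, with Mirlet7f-1 between them. let-7b-3p (chr15:85707379-85707400, plus strand) lies within the long non-coding RNA gene Lncppara of RefSeq, 621 bases from the hairpin of Mirlet7c-2. The older GENCODE annotation has no gene that overlaps Mirlet7b. let-7g-3p (chr9:106178902-106178923, plus strand) lies within Wdr82, and in the older GENCODE annotation none of the 2 Wdr82 transcripts that span the hairpin has an exon there, so it is intronic. let-7i-3p (chr10:122985642-122985663, minus strand) overlaps no other annotated gene.

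The 3p strand of another hairpin, Mirlet7c-2 (chr15:85706664-85706685, plus strand), is printed because it is letter for letter the same as let-7a-1-3p.
mmu-let-7c-2-3p: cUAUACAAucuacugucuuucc
The raw count table gave 32611 counts to let-7a-1-3p and 2 to let-7c-2-3p over all training libraries, whereas the deposited CPM of both names were equal in every training and validation library. Which of the hairpins the molecules called let-7a-1-3p came from cannot be told apart in these data.

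Total counts per training library ranged from 1792809 to 7958411, with a median of 4437464. Levels below are counts per 1000000 counts (CPM) scaled with TMM, a trimmed mean that offsets differences in composition between libraries. Some libraries stood apart. The Ctrl library of mouse 3349 at month 2 had the lowest total of all training libraries. CM mouse 3334 and Ctrl mouse 3335 went against their arms in summed miR-126a, the miRNA that the study centres on and that also marks endothelial cells. At month 5 this sum was 237.6 CPM in mouse 3334 against 405 to 800 in the other CM libraries. It was 437.8 CPM in mouse 3335 against 156 to 239 in the other Ctrl libraries. At month 6 the sum was 254.4 CPM in mouse 3334 against 276.2 to 7543.99 in the other CM libraries. It was 875.3 CPM in mouse 3335 against 127.76 to 392.96 in the other Ctrl libraries. Results that rest on these libraries are given with and without them. Training library titles also hold a running number that rises with month within every other mouse. In mice 3334 and 3335 it breaks between months 5 and 6, where each mouse takes up the run the other held before. At month 6 the last number of each title falls among those of the other mouse's G number, an unexplained code in the titles. Whether the labels of these mice were exchanged was not tested. An exchange would put libraries of both in the wrong arm.

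The 3p strands differed widely in abundance. Over the 53 CM and 76 Ctrl training libraries, let-7d-3p was the most abundant at 614 ± 201 CPM (SD, range 204 to 1362). let-7i-3p followed at 147.7 ± 47.03 CPM (49.997 to 419). let-7a-1-3p stood at 58.95 ± 41.02 CPM (13.5 to 280). let-7b-3p stood at 14.2 ± 8.53 CPM (4.95 to 74.5). let-7g-3p was the scarcest at 4.23 ± 2.50 CPM (0.385 to 14.3), from 1 to 64 counts per library, so counting error weighs most on it. The ranges of neighbours in this order overlapped across libraries, but within a library the order was stable. let-7d-3p exceeded let-7i-3p, and let-7a-1-3p exceeded let-7b-3p, in 100% of libraries. let-7i-3p exceeded let-7a-1-3p in 93.02% and let-7b-3p exceeded let-7g-3p in 95.3%. All 5 stood in this order in 88.4% of libraries.

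The abundance of a 3p strand did not follow that of its 5p strand. let-7i-5p (mean 70760 CPM) and let-7g-5p (43143 CPM) were the most abundant 5p strands, while let-7a-5p had 9631, let-7d-5p 5949 and let-7b-5p 3534 CPM. The 3p strand made up 9.66% ± 3.44 of the counts of both strands for let-7d (mean ± SD over libraries), which was the highest share. It made up 1.52% ± 2.51 for let-7a-1, a value that depends on let-7a-5p, which another hairpin also makes and which itself varied with a coefficient of variation of 65.7%. That spread is of the raw counts. In the Ctrl month 10 comparison, the standard error of the let-7a-5p log2 difference was 0.70 on raw counts. On reads recovered from the deposited CPM it was 0.14. The let-7a-1 share and its spread were not computed from the deposited CPM. The 3p strand made up 0.399% ± 0.179 for let-7b and 0.212% ± 0.070 for let-7i. let-7g had the lowest share, 0.0115% ± 0.0082, although its 5p strand was the second most abundant. On the raw counts, the 3p strand had the larger coefficient of variation across libraries for each hairpin. For let-7a-1 this was by little (69.6% against 65.7%). The values were 60.1% against 22.5% for let-7b, 32.7% against 20.95% for let-7d, 59.1% against 33.9% for let-7g and 31.8% against 16.9% for let-7i. The part of counting error in the spread of let-7g-3p and let-7b-3p, which had the lowest counts, was not tested.

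**Figure D1:**
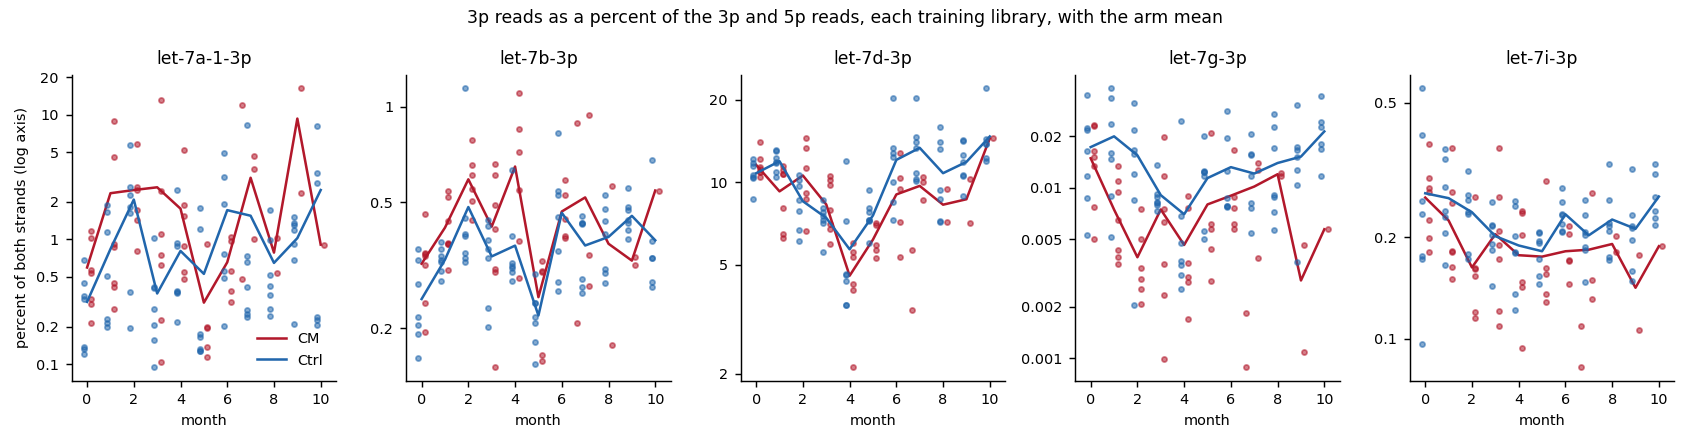
Counts of the 3p strand as a percent of the counts of both strands of each let-7 hairpin (y axis, log scale) in the training libraries, 1 point per library with CM and Ctrl apart. let-7d sits highest, around 9.66%, and let-7g lowest, around 0.0115%.

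Across months the 5 strands followed different courses, and 3 of them had their lowest mean at the same month in both arms. The highest and lowest CM means given here are those of months 0 to 6, since at most 3 CM mice were left later. Mean let-7a-1-3p was lowest at month 5, at 25.2 ± 5.81 CPM in CM mice (n = 5) and 17.8 ± 3.35 in Ctrl mice (n = 7). Its highest means were 114.5 ± 85.5 CPM at month 4 in CM mice (n = 6) and 72.1 ± 40.6 at month 6 in Ctrl mice (n = 7). let-7b-3p was also lowest at month 5, at 8.25 ± 2.52 CPM in CM and 7.24 ± 1.30 in Ctrl mice. let-7d-3p was instead lowest at month 4, at 359 ± 86.6 CPM in CM mice, and at 419 CPM in Ctrl mice. let-7g-3p and let-7i-3p had their highest CM mean at month 0 (5.85 ± 2.76 and 154.5 ± 37.6 CPM, n = 7) and their lowest at month 2 (2.05 and 103.01 CPM, n = 6). With 2 CM mice at month 6.5, the means were 139.3 CPM for let-7a-1-3p, 1.06 for let-7g-3p and 92.6 for let-7i-3p, beyond these extremes. Neighbouring months in each order overlapped for every member, except for 1 of 10 neighbours of let-7a-1-3p in Ctrl mice. Month and preparation batch are not tied together by a label that names the batch, so that a shared low month in both arms cannot be told apart from a batch.

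**Figure D2:**
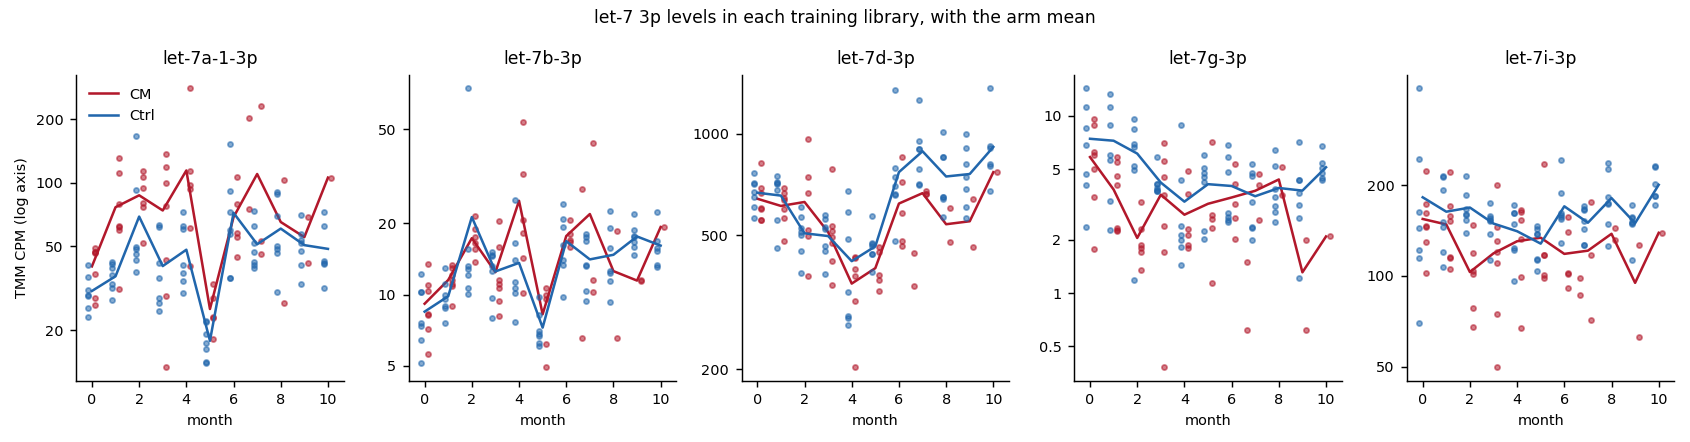
TMM-scaled CPM (y axis, log scale) of the 5 let-7 3p strands by month (x axis) in CM and Ctrl training mice, with 1 point per library and lines through the means. let-7a-1-3p and let-7b-3p dip at month 5 in both arms, and CM and Ctrl points overlap at every month from 0 to 6.

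Between arms, the fitted difference of let-7a-1-3p was above 0 in CM mice at months 0 to 5, that of let-7g-3p was below 0 at months 0 to 6, and that of let-7i-3p was below 0 at each of these months but month 5. let-7b-3p and let-7d-3p differed less. These are the values that chose the members. The groups overlapped for every member at every month from 0 to 6, the months at which at least 5 CM mice were left. All 5 members passed the filter on low counts at each month.

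let-7a-1-3p was 0.35 higher in CM mice on the log2 scale at month 0 (SE 0.18, edgeR), in blood drawn before induction. At month 1 it ranged from 31.4 to 130.8 CPM (median 62.3) in 7 CM mice and from 27.9 to 42.3 (median 36.6) in 7 Ctrl mice. The log2 difference was 1.05 (SE 0.26), and 6 of 7 CM mice were above every Ctrl mouse. Month 2 gave 0.32 (SE 0.35), month 3 gave 0.90 (SE 0.42), month 4 gave 1.35 (SE 0.41), month 5 gave 0.54 (SE 0.17) and month 6 gave -0.08 (SE 0.37). Single mice set several of these values. Without CM mouse 3338, with 280 CPM, the month 4 difference was 0.72, and without the shallow Ctrl library of mouse 3349, with 166.8 CPM, the month 2 difference was also 0.72. Without mice 3334 and 3335 the month 6 difference was 0.36, and with month 6.5 libraries in place of month 6, where a mouse had one, it was 0.62. With the unexplained G number of the library titles as a covariate, the month 2 difference was 1.05 (SE 0.35) and the month 3 difference -0.78. Such a fit compares the arms only within G numbers that both arms held. At month 2 these held CM mice 3336 and 3338 and Ctrl mice 3335, 3339 and 3342. At month 3 they held CM mouse 3334 and Ctrl mouse 3339 alone, so for every member that difference rests on 1 library per arm. At month 4 no G number held both arms, so arm and G number cannot be told apart there.

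let-7b-3p, with the same seed, differed less between arms. Its log2 differences at months 0, 1, 3, 5 and 6 were 0.08, 0.19, 0.03, 0.22 and 0.05. At month 4 CM mice ranged from 10.1 to 53.6 CPM (median 19.5) and Ctrl mice from 7.63 to 25.1 (median 11.3). Arm and G number cannot be told apart at that month. The month 4 difference was 0.96 (SE 0.41), and 0.45 without CM mouse 3338. At month 2 it was -0.30 (SE 0.47) with all libraries and 0.48 without the Ctrl library of mouse 3349, which held 74.5 CPM while the other 6 Ctrl libraries held up to 15.6. With all libraries, DESeq2 gave 0.46, the G number as a covariate 0.40 (SE 0.28) and limma on the deposited CPM 0.12. The direction of let-7b-3p at month 2 thus changed with 1 shallow library, with the tool and with the covariate. At month 6 the G number gave -0.35, from CM mice 3334 and 3370 against Ctrl mouse 3346.

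let-7d-3p had log2 differences between -0.36 at month 6 and 0.29 at month 2. With the G number as a covariate, month 3 gave 0.71, from CM mouse 3334 against Ctrl mouse 3339, and 0.10 without it. No month put more than 3 CM mice outside the range of Ctrl mice on one side.

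let-7g-3p had a log2 difference below 0 in each of the 7 months, largest at month 1 (-0.95, SE 0.38) and month 2 (-1.57, SE 0.39). The other months gave -0.39, -0.15, -0.21, -0.33 and -0.26 at months 0, 3, 4, 5 and 6. Their SEs were 0.40, 0.36, 0.45, 0.41 and 0.37, so each of these differences, month 0 included, was smaller than its error. The direction was not stable at months 3 and 4, with 0.02 at month 3 without mouse 3334 and 0.22 at month 4 without mouse 3335. Without both mice, month 4 gave 0.38, month 5 gave -0.98 and month 6 gave 0.07. With the G number as a covariate the month 2 difference was -0.87. The month 3 difference, from CM mouse 3334 against Ctrl mouse 3339, was then -3.12.

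let-7i-3p had its largest difference at month 2, when 5 of 6 CM mice were below every Ctrl mouse (log2 difference -0.71, SE 0.19). With the G number as a covariate it was -0.35. The month 3 difference, -0.28 without the covariate, was then -1.40, from CM mouse 3334 against Ctrl mouse 3339. The month 6 difference was -0.57 (SE 0.22). At month 0 the difference of -0.29 changed to 0.05 without Ctrl mouse 3342, which had 419 CPM. At month 5 it was 0.11, and -0.18 without CM mouse 3334.

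For scale, of all miRNAs tested the share called at an adjusted p under 0.05 (edgeR quasi-likelihood test, Benjamini-Hochberg) was 0.209%, 27.5%, 13.5%, 22.0% and 0.837% for months 0, 1, 2, 3 and 4. At month 1 this was made up of 14.6% higher and 12.9% lower in CM mice. The share called was 0% at months 5 and 6, where 21.6% and 6.98% of miRNAs had an unadjusted p under 0.05 and DESeq2 called 21 and 0. Of the other let-7 and miR-98 strands, 2 of 13 were called at month 1, 1 of 13 at month 3 and none at the other months. At month 1 the guide let-7g-5p was higher in CM mice by 0.51 (SE 0.14, adjusted p = 0.0176), opposite in sign to let-7g-3p, and let-7e-5p was lower by 1.07 (adjusted p = 0.000903). With the G number as a covariate the let-7g-5p difference was 0.40 (adjusted p = 0.237), and without a filter 0.58 (adjusted p = 0.101). At month 3 let-7j was lower in CM mice, with a log2 difference of -0.51 (adjusted p = 0.0293, and 0.106 without a filter). The other opposite strands, let-7a-5p, let-7b-5p, let-7d-5p and let-7i-5p, did not pass the test at any of these months.

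The widest split among the 3p strands was between the last CM library of each mouse and its month 0 library. The last library was from month 4 in mice 3338 and 3357, month 6 in 3341, month 6.5 in 3334, month 7 in 3336, month 9 in 3370 and month 10 in 3368. The values of these libraries are part of what chose the members and have no test. The month 0 and last libraries of mouse 3334 lie on either side of the break in running number described above. They may not be from the same animal.

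let-7a-1-3p went from 28.4 to 203 CPM in mouse 3334, from 46.5 to 232 in mouse 3336, from 26.4 to 280 in mouse 3338, from 49.3 to 58.1 in mouse 3341, from 37.0 to 93.5 in mouse 3357 and from 47.01 to 105.9 in mouse 3368. In mouse 3370 it went from 46.8 to 41.9 CPM. The last value was thus above month 0 in 6 of 7 mice, and the means were 40.2 ± 9.60 CPM at month 0 and 144.9 ± 92.7 at the end (log2 difference 2.07, SE 0.44).

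let-7b-3p went from 8.22 to 27.8 CPM in mouse 3334, from 8.29 to 43.9 in mouse 3336, from 7.14 to 53.6 in mouse 3338, from 13.4 to 20.6 in mouse 3341, from 10.97 to 32.5 in mouse 3357, from 10.3 to 19.3 in mouse 3368 and from 5.61 to 11.4 in mouse 3370. It was higher at the end in 7 of 7 mice, and mouse 3338 was highest at the end as it was for let-7a-1-3p. The means were 9.14 ± 2.62 and 29.9 ± 14.8 CPM (log2 difference 1.90, SE 0.37).

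let-7d-3p went from 599 to 442 CPM in mouse 3334, from 556 to 398 in mouse 3338, from 690 to 466 in mouse 3341, from 603 to 204 in mouse 3357, from 820 to 769 in mouse 3368 and from 669 to 460 in mouse 3370. Mouse 3336 went the other way, from 553 to 676 CPM. The ranges overlapped, and the log2 difference of -0.24 (SE 0.26) was smaller than its error, with 6 of 7 mice lower at the end.

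let-7g-3p went from 1.78 to 0.619 CPM in mouse 3334, from 5.01 to 2.60 in mouse 3336, from 6.04 to 2.30 in mouse 3338, from 8.82 to 1.86 in mouse 3357, from 9.56 to 2.09 in mouse 3368 and from 6.27 to 0.616 in mouse 3370. In mouse 3341 it went from 3.497 to 4.13 CPM. The end values rest on 2 to 12 counts per library. It was lower in 6 of 7 mice (log2 difference -1.36, SE 0.43).

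let-7i-3p went from 102.6 to 98.7 CPM in mouse 3334, from 162 to 71.6 in mouse 3336, from 129.4 to 67.2 in mouse 3338, from 146 to 91.5 in mouse 3341, from 173 to 99.5 in mouse 3357, from 222 to 139.01 in mouse 3368 and from 146 to 62.8 in mouse 3370. It was lower at the end in 7 of 7 mice, although in mouse 3334 by little. The means were 154.5 ± 37.6 and 90.03 ± 26.4 CPM (log2 difference -0.65, SE 0.22). Without mouse 3334 the last-library differences of the 5 members, in the order given, were 1.84, 1.84, -0.27, -1.40 and -0.79.

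**Figure D3:**
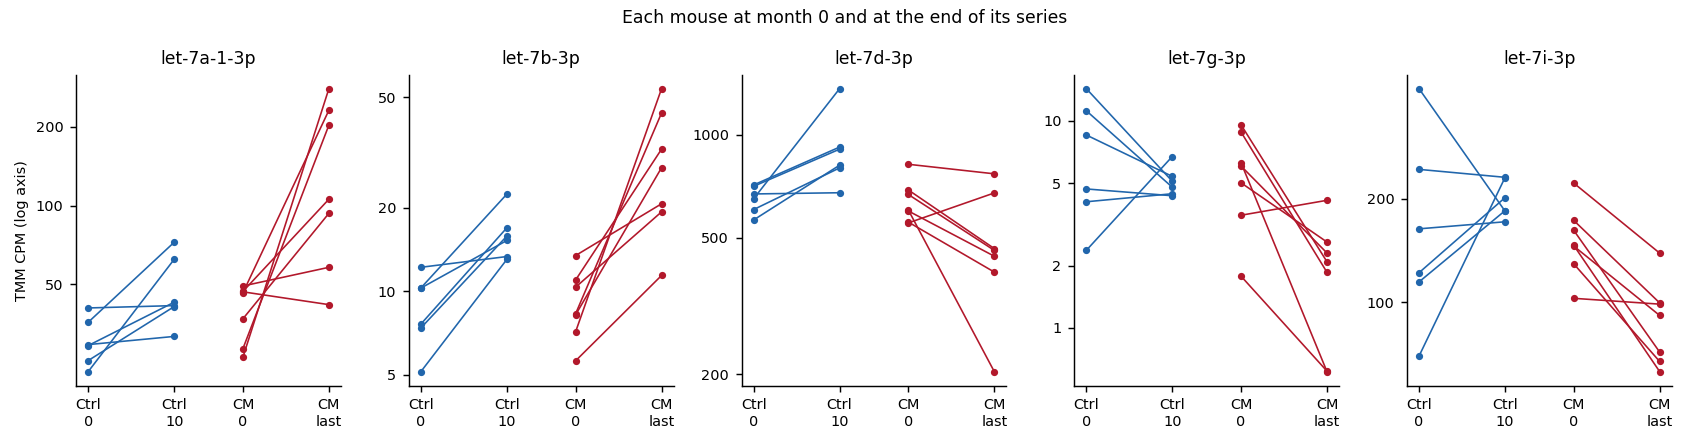
TMM-scaled CPM (y axis, log scale) of each 3p strand at month 0 and at the end of the series, 1 line per mouse by its label, for 7 CM mice (last library) and 6 Ctrl mice (month 10). CM mice end higher in 7 of 7 for let-7b-3p and lower in 7 of 7 for let-7i-3p, and Ctrl mice end higher in 6 of 6 for let-7a-1-3p, let-7b-3p and let-7d-3p.

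Ctrl mice were compared between month 10 (n = 6) and month 0 (n = 7). The members were chosen for their directions in CM mice. Earlier results from these data, Ctrl libraries included, were known at that choice, so the p-values below may not be free of it. let-7a-1-3p, let-7b-3p and let-7d-3p were higher at month 10, and let-7g-3p and let-7i-3p did not pass the test, as read from edgeR's quasi-likelihood test with adjustment over 477 miRNAs. Of those miRNAs 26.8% were called, made up of 13.4% higher and 13.4% lower, and the members' count of 3 of 5, all higher, stands beside that background. The month 0 and month 10 libraries of mouse 3335 lie on either side of the break in running number and may not be from the same animal. Without mouse 3335 the same 3 were called, with adjusted p-values of 0.0224, 0.00725 and 0.0255.

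let-7a-1-3p went from 35.9 to 72.5 CPM in Ctrl mouse 3335, from 23.2 to 62.4 in 3339, from 29.4 to 31.6 in 3340, from 40.6 to 41.5 in 3342, from 25.6 to 41.1 in 3346 and from 29.2 to 42.8 in 3349. All 6 mice were higher at month 10, and in mice 3340 and 3342 by little. The log2 difference was 0.74 (SE 0.20, adjusted p = 0.0129). The call was lost without mouse 3339 and without a filter on low counts (adjusted p = 0.0699), and with mouse as a replicate block the difference was 0.72 with an adjusted p of 0.0526.

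let-7b-3p went from 10.3 to 22.4 CPM in Ctrl mouse 3335, from 7.61 to 16.9 in 3339, from 5.13 to 13.0 in 3340, from 7.37 to 15.8 in 3342, from 12.2 to 13.3 in 3346 and from 10.3 to 15.2 in 3349. It was higher in 6 of 6 mice and had the largest difference of the members, 1.01 (SE 0.21, adjusted p = 0.00257). It was called in 7 of 7 fits that left out a mouse, and with the replicate block at 0.98 (adjusted p = 0.0196).

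let-7d-3p went from 564 to 815 CPM in Ctrl mouse 3335, from 707 to 907 in 3339, from 714 to 920 in 3340, from 605 to 800 in 3342, from 672 to 677 in 3346 and from 651 to 1362 in 3349. It too was higher in 6 of 6 mice (log2 difference 0.54, SE 0.15, adjusted p = 0.0166), but was called in 4 of 7 fits that left out a mouse and not with the replicate block (adjusted p = 0.0518), on the deposited CPM by limma (0.0744) or without a filter (0.152). In place of month 10, month 9 gave an adjusted p of 0.179 and month 8 gave 0.153. In CM mice the last libraries gave a log2 difference of -0.24 for this strand.

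let-7g-3p (log2 difference -0.44, SE 0.36, adjusted p = 0.387, lower in 4 of 6 mice) and let-7i-3p (0.22, SE 0.34, adjusted p = 0.656, higher in 4 of 6) were not called. Set beside these Ctrl values, the CM log2 differences were 2.07 against 0.74 for let-7a-1-3p, 1.90 against 1.01 for let-7b-3p, -1.36 against -0.44 for let-7g-3p and -0.65 against 0.22 for let-7i-3p. The spans differ, from 4 to 10 months in CM and 10 months in Ctrl mice, and no test of the difference between the arms was run.

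In the last CM libraries the strands of 1 hairpin had differences of opposite sign for let-7g, let-7d and let-7i. The 5p strands were tested and the 3p strands were not. let-7g-5p, the guide, rose from 39395 ± 3041 to 66751 ± 23996 CPM in CM mice (SD, n = 7; log2 difference 0.91, SE 0.22, adjusted p = 0.00642), higher in 6 of 7 mice. let-7g-3p had a log2 difference of -1.36 in the same libraries. let-7d-5p rose by 0.75 (SE 0.19, adjusted p = 0.00817), while let-7d-3p had -0.24, smaller than its SE of 0.26. For let-7b both strands were higher, the 5p strand by 0.68 (SE 0.18, adjusted p = 0.00895). let-7a-5p (0.29, adjusted p = 0.708) and let-7i-5p (0.36, adjusted p = 0.0925) did not pass the test. Both passed in edgeR on reads recovered from the deposited CPM, a setting chosen after seeing the data. There let-7a-5p had 0.50 (adjusted p = 0.0460) and let-7i-5p 0.41 (adjusted p = 0.0457). let-7i-3p had -0.65 (SE 0.22) in the same libraries. With mouse as a replicate block, let-7g-5p, let-7d-5p and let-7b-5p had adjusted p-values of 0.0340, 0.0385 and 0.0409. Without a filter they had 0.0412, 0.0953 and 0.144.

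Ctrl mice gave another picture for let-7g. let-7g-5p fell by 0.64 from month 0 to month 10 (SE 0.19, adjusted p = 0.0205, lower in 5 of 6 mice), the reverse of its sign in CM mice, and the difference between the arms was not tested. The exception was mouse 3335, without which let-7g-5p gave -0.88 (adjusted p = 0.000330). With the replicate block it had an adjusted p of 0.0590, and without a filter 0.0552. let-7g-3p, at -0.44, did not pass the test. let-7b-5p rose by 0.47 (adjusted p = 0.0193), and its call was lost with the replicate block (0.43, adjusted p = 0.0634) and without a filter (0.39, adjusted p = 0.214). let-7a-5p (-0.40, adjusted p = 0.690), let-7d-5p (0.02, adjusted p = 0.902) and let-7i-5p (0.29, adjusted p = 0.127) did not pass the test.

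**Figure D4:**
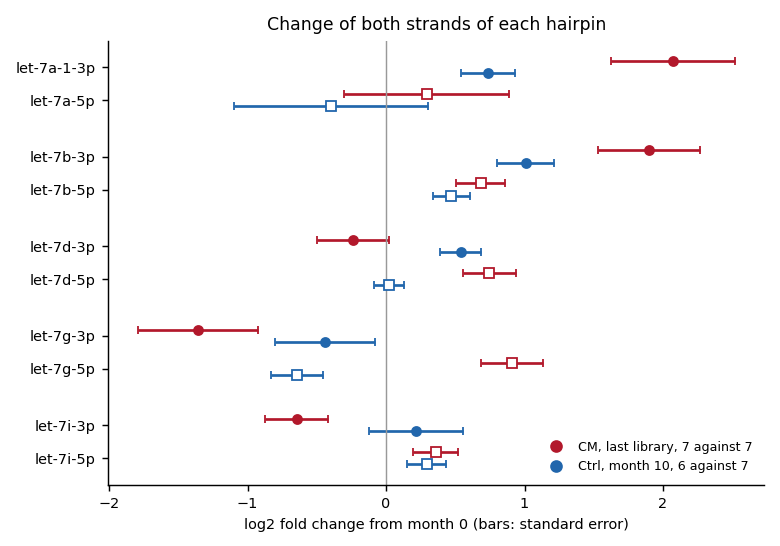
Log2 difference from month 0 (x axis) of the 3p strand (filled circles) and the 5p strand (open squares) of each let-7 hairpin (rows), for the last CM library (red) and Ctrl month 10 (blue), with bars of 1 SE. In CM mice let-7g-5p lies at 0.91 and let-7g-3p at -1.36, and let-7b-5p lies at 0.68 and let-7b-3p at 1.90.

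Of the other let-7 and miR-98 strands, 4 of 13 were called in the last CM libraries, all higher, beside 39.0% of all miRNAs (23.1% higher and 15.9% lower). These were let-7b-5p, let-7d-5p, let-7g-5p and miR-98-5p (0.75, adjusted p = 0.0104), and the median log2 difference of the 13 was 0.68 beside -0.06 over all miRNAs tested. In Ctrl mice 5 of 14 were called, beside 26.8% of all miRNAs (13.4% higher and 13.4% lower). Among these were the 3p strands let-7e-3p (1.70, adjusted p = 0.0125) and let-7f-2-3p (1.19, adjusted p = 0.0130), both higher like let-7a-1-3p, let-7b-3p and let-7d-3p. let-7e-5p was higher by 1.20 (adjusted p = 0.00257). The rest were let-7b-5p, which was higher, and let-7g-5p, which was lower.

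Across libraries, the pair of members with the highest correlation was the one that shares a seed. Over all training libraries, which share mice and months and are not independent, Spearman's rho of log2(CPM + 1) was 0.67 between let-7a-1-3p and let-7b-3p. This rho was 0.76 within the 53 CM libraries and 0.65 within the 76 Ctrl libraries. Mirlet7a-1 and Mirlet7b lie on different chromosomes, but Mirlet7c-2, which makes the same 3p sequence as Mirlet7a-1, lies 621 bases from Mirlet7b. Which of these hairpins the counts of let-7a-1-3p came from cannot be told apart. Within the cluster of Mirlet7a-1, rho over all libraries was -0.03 between let-7a-1-3p and let-7d-3p and 0.53 between let-7a-1-3p and let-7f-1-3p. let-7g-3p and let-7i-3p formed the other pair, with 0.62 over all, 0.71 in CM and 0.45 in Ctrl libraries. They matched at 1 of 7 seed bases when counted position by position, without a shift.

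The miRNAs most like each member by Spearman's rho were searched among 327 miRNAs with a mean of at least 10 CPM. For let-7a-1-3p they were miR-1191a (0.72), miR-98-3p (0.70) and miR-340-3p (0.60). For let-7b-3p they were miR-1291 (0.62), miR-339-5p (0.59) and miR-191-3p (0.59). let-7d-3p was closest to miR-669c-5p (0.75), miR-324-3p (0.68) and miR-877-3p (0.68), and let-7g-3p to miR-29c-3p (0.68), miR-33-5p (0.65) and miR-500-3p (0.64). let-7i-3p was closest to miR-326-3p (0.67), miR-345-5p (0.65) and miR-872-3p (0.64). No member shared a name in its list with another.

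Markers of other cells moved in the same libraries. From month 0 to the last CM library, the median summed CPM of the lymphocyte miR-150 strands went from 45757 to 23374 and that of the myeloid miR-223 strands from 9138 to 4543. The miR-126a sum went from 192 to 2305, the erythroid sum of 7 strands from 62239 to 62441 and the pan-hematopoietic miR-142a sum from 86099 to 52472. In Ctrl mice at month 10 the lymphocyte sum also went from 45056 to 18414 and the myeloid sum from 11152 to 3679. There the miR-126a sum went from 206 to 228, the erythroid sum from 61733 to 101728 and the miR-142a sum from 72650 to 40448. The liver and muscle markers reached at most 17.0 and 8824 CPM in any training library. The part of cell composition in the changes of the let-7 strands was not tested, and in PBMC fewer cells of a type and less RNA per cell cannot be told apart.

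The validation cohort tested the members in other mice. At point 5, with 6 CM and 6 Ctrl mice and 1645456 to 5445215 reads per library, none of the 5 strands passed the test (limma-trend on log2 of the deposited CPM + 1). That background was 0% of 930 miRNAs called, with 54 at an unadjusted p under 0.05, and edgeR on recovered reads called 0 of 478. The deposited validation CPM are on another scale than the training CPM, and that scale differed between the point 5 libraries. Levels are therefore given here as reads per 1000000 miRNA reads (RPM), while the test used the deposited CPM.

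let-7a-1-3p ranged from 10.9 to 145.1 RPM in CM mice (median 19.6) and from 8.06 to 28.6 in Ctrl mice (median 15.6). The log2 difference was 0.73 (SE 0.56, adjusted p = 0.941) and rested on CM mouse 2684, the highest library, without which it was 0.15. edgeR on recovered reads gave 1.51 (SE 0.66, adjusted p = 0.308). let-7b-3p ranged from 7.36 to 29.2 in CM mice and from 7.02 to 13.0 in Ctrl mice, and mouse 2684 was again the highest. Its difference was 0.21 (SE 0.42, adjusted p = 0.982), and -0.13 without mouse 2684.

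let-7d-3p was the most even member in RPM, at 485 to 641 in CM and 543 to 646 in Ctrl mice. On the deposited CPM, which were tested, it ranged from 2928 to 9659 in CM and from 4932 to 7959 in Ctrl mice. Its log2 difference was -0.00 (SE 0.30, adjusted p = 0.999). The standard errors of the members at point 5 carry this spread in scale. let-7g-3p ranged from 1.39 to 5.88 in CM and from 2.47 to 6.05 in Ctrl mice (-0.32, SE 0.50, adjusted p = 0.979). let-7i-3p ranged from 134.8 to 191 in CM and from 144 to 254 in Ctrl mice (-0.17, SE 0.33, adjusted p = 0.979). The arms overlapped for all 5 strands. The standard errors allow differences as large as those at single training months, except for the month 2 difference of let-7g-3p (-1.57). The 5p strands let-7a-5p (-0.01), let-7b-5p (0.03), let-7d-5p (-0.11), let-7g-5p (0.29) and let-7i-5p (-0.17) were not called either, nor were any of the 16 other let-7 and miR-98 strands. The order of abundance at point 5, with let-7d-3p highest and let-7g-3p lowest, was as in the training cohort.

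**Figure D5:**
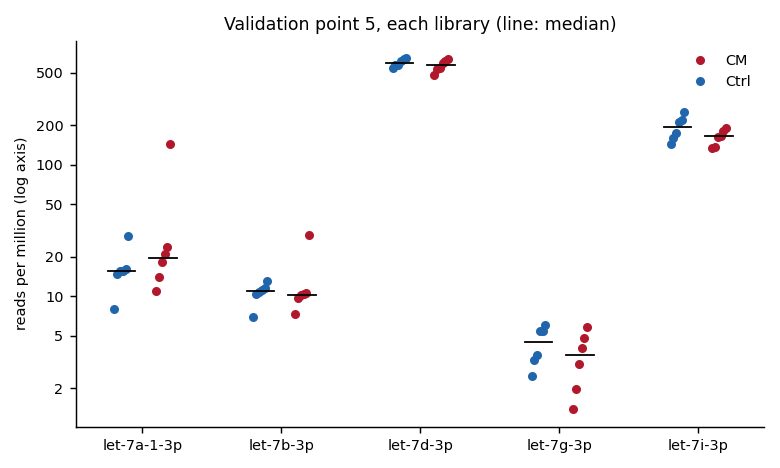
RPM (y axis, log scale) of the 5 let-7 3p strands at validation point 5 in 6 CM and 6 Ctrl mice, 1 point per mouse. CM mouse 2684 stands above all others for let-7a-1-3p at 145.1 and for let-7b-3p at 29.2.

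The other 90 validation libraries held 1744 to 76906 reads each. Over all of them the CM arm had 18 reads of let-7a-1-3p, 6 of let-7b-3p, 19 of let-7d-3p, 4 of let-7i-3p and 0 of let-7g-3p, of 1108965 reads, where a count of 0 allows up to 2.71 RPM. The Ctrl arm had 25, 5, 21, 1 and 1 reads of these, in the same order, of 1038861 reads. Per read, let-7d-3p thus stood at 17.1 RPM in CM and 20.2 in Ctrl mice, where point 5 had means of 570 and 599, and let-7i-3p at 3.61 and 0.963 RPM, where point 5 had 162 and 194. let-7a-1-3p was at 16.2 and 24.1 RPM beside 38.8 and 16.4 at point 5, so that in Ctrl mice it had more reads than let-7d-3p, and the order of abundance was not that of point 5. The cause of this difference between the points was not tested. With so few reads, no test between the arms was run at these points.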

How the data were processed

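Mature miRNAs were measured by small RNA sequencing of PBMC in 231 libraries. The study's methods say that adapters were removed by cutadapt, that short reads were dropped and the rest were mapped by Bowtie to mm9, and that the authors counted miRBase entries. The processing notes of the submitters name GRCm38, so the builds differ, and the counting settings are not given in the sources used here. The deposited training counts are raw counts per mature miRNA. The deposited CPM are a TMM-scaled signal whose columns do not sum to a fixed total, and the authors made them in edgeR. All values above 0 in both deposited CPM tables (100%) were whole multiples of 1 read within 0.1 read, so reads were recovered.

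Every library was put in its arm, mouse and time from the labels, and 0 columns were left over. Training counts were tested with edgeR 4.0.16 (R 4.3.3; quasi-likelihood F test, TMM, filterByExpr), 1 library per mouse and time. The validation CPM at point 5 were tested with limma 3.58.1 (limma-trend, log2(CPM + 1), keeping miRNAs that reached 1 CPM in a number of libraries no lower than the size of the smaller arm), and fold changes on that scale understate low miRNAs. Tests were two-sided with Benjamini-Hochberg adjustment and a threshold of 0.05. A share of 0 counts was bounded by 3 counts, and bounds cover counting error only. Levels and correlations were computed in Python 3.11.15. The scripts were checked on simulated counts.

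Month 0 and later libraries of the same arm came from the same mice per the labels, so mouse pairs them, and a fit with mouse as a replicate block was an alternative. For mice 3334 and 3335 this pairing is in doubt, given the break in running number. CM and Ctrl mice are different animals and share no pairing. The other alternatives were DESeq2 1.42.0, raw library sizes, other filters and pseudocounts, sex or G number as a covariate, other months, the deposited CPM, leaving out mice and, chosen after seeing the data, edgeR on the recovered reads, which called 142 miRNAs in Ctrl mice at month 10 and 204 in the last CM libraries.

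The members, the lists and the rule for named miRNAs were chosen with earlier results of these data known. The rule named the 5 members, their opposite strands, other let-7 and miR-98 strands past the threshold, strands with a member's sequence, the 3 most correlated miRNAs per member and the markers as sums.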

Additional observations from a re-analysis of the deposited data

Results flagged for a closer look

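Within arms and months of 4 to 10 mice, 5 of 100 groups of member levels held a library far from the rest by Dixon's criterion, and chance gives about 5 of 100. In Ctrl mice at month 2, let-7b-3p was 74.5 CPM in mouse 3349 while the next value was 15.6. In the same month let-7g-3p was 1.18 CPM in Ctrl mouse 3342, below the next value of 4.92. At month 3 let-7g-3p was 5.89 CPM in Ctrl mouse 3350, above the next value of 4.12. let-7i-3p was 234.4 CPM in CM mouse 3334 at month 5, against a next value of 117.7, and this mouse also stood apart from its arm in miR-126a. At month 9 let-7i-3p was 113.1 CPM in Ctrl mouse 3342, below the next value of 148.5.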

How the results depend on the processing

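The let-7g-3p values rest on few counts, each month has 5 to 7 mice per arm, and the validation cohort was tested at point 5 only. The members called in Ctrl mice at month 10 changed sign under none of the alternatives tried. Of the summary values, 397 stayed within 1.5 times of their main count or within 1 SD, 38 were larger and 50 smaller, and the causes were not tested. Members called in Ctrl mice at month 10 numbered 3, or 2 on the deposited CPM and at months 8 and 9 (without let-7d-3p), 1 without a filter and 1 with mouse as a replicate block, where the share of all miRNAs called went from 26.8% to 17.2%. The block also ended the calls of let-7b-5p and let-7g-5p. Other strands of the family called there numbered 3 without a filter in place of 5. In the last CM libraries they numbered 1 without a filter and 9 on recovered reads, where let-7c-2-3p repeats let-7a-1-3p, in place of 4.

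The share of miRNAs called at month 0 was 0.209%, against 0.837% by DESeq2 and 0% without a filter, on deposited CPM, on recovered reads, without mice 3334 and 3335, with the G number, and in one fit over all libraries with or without it. At month 1 the G number gave 2.12%. Month 2 gave 21.4% by DESeq2, 22.2% on recovered reads, 2.63% without a filter, 0% with the G number and 5.15% in the one fit with it. Month 3 gave 1.32% with the G number and 7.61% in the one fit with it. Month 4 gave 4.81% by DESeq2, 0.833% (13 calls in place of 4) without a filter, 0.411% at a minimum of 10 counts, 2.11% on recovered reads, 1.46% without mice 3334 and 3335, 0% with sex, and 8.59% and 6.26% in the one fit without and with the G number. Month 5 gave 4.16% by DESeq2, 10.4% without mice 3334 and 3335, and 2.21% and 0.736% in the one fit without and with the G number. Month 6 gave 2.33% and 1.84% in the one fit. At month 4 the G number could not be fitted, since no G number held both arms.

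Other strands of the family called were 1 at month 0 by DESeq2, 1 at month 1 with raw library sizes, without a filter and with the G number, and 1 at month 2 by DESeq2, with raw library sizes, at a minimum of 10 counts and on recovered reads. At month 3 they were 3 by DESeq2, 4 on deposited CPM and on recovered reads, 2 in the one fit, and 0 with the G number and in the one fit with it. At month 4 the one fit with the G number called 1.

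Some log2 differences turned in direction. At month 9 in place of month 10, let-7i-3p was -0.217 in Ctrl mice. There let-7a-5p was 0.0179 on deposited CPM, 0.11 on recovered reads and 0.0621 at month 8, and let-7d-5p was -0.0097 by DESeq2, -0.0543 without a filter, -0.0246 on deposited CPM and -0.0271 without mice 3334 and 3335. At validation point 5, let-7d-3p was 0.0265 with sex and 0.0563 on recovered reads, and let-7a-5p was 0.0831 and 0.0481.

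Leaving out each mouse in turn, the share called ranged from 0% to 0.41% at month 0, 19.8% to 30.3% at month 1, 9.11% to 26.6% at month 2 (highest without mouse 3349), 16.1% to 29.7% at month 3, 0% to 2.88% at month 4 and 0% to 7.51% at month 5 (highest without mouse 3335). It ranged from 29% to 52.3% in the last CM libraries and from 14.8% to 33.3% in Ctrl mice at month 10 (lowest without mouse 3339). Family counts ranged from 0 to 2 at month 2, 0 to 3 at month 3 and 1 to 5 in Ctrl mice, and member counts from 1 (without mouse 3339) to 3. Log2 differences ranged from -0.117 to 0.554 for let-7a-5p in CM mice, and in Ctrl mice from -0.749 to 0.00378 for let-7a-5p and from -0.0271 to 0.0995 for let-7d-5p. At point 5 they ranged from -0.166 to 0.185 for let-7a-5p, -0.125 to 0.42 for let-7b-3p, -0.0874 to 0.0968 for let-7b-5p, -0.115 to 0.229 for let-7d-3p, -0.259 to 0.033 for let-7d-5p and -0.32 to 0.00428 for let-7i-3p.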
